A study of Mus musculus with 20 samples.

Results

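Aggrecanases and the inhibitors of metalloproteinases were described here in knee articular cartilage of male Dio2-/- and wild-type mice. The set was a list of 10 genes, namely the ADAMTS proteases Adamts1, Adamts2, Adamts4, Adamts5 and Adamts9, the tissue inhibitors of metalloproteinases Timp1, Timp2, Timp3 and Timp4, and the serine protease gene Htra1. All probes that carried 1 of these symbols in the platform annotation were taken, which gave 15 of the 45281 probes for 8 of the 10 genes. No probe used here was named for Adamts2 or Adamts5, and both were not analysed here. A probe was called detected when its detection P-value lay below 0.05, and it was tested when it was detected on at least 3 of the 20 arrays, as 23148 probes were. Of the 15 probes, 14 were tested, at least 1 for each of the 8 genes, and Adamts1 ILMN_1230129 was detected on 0 of 20 arrays.

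The 20 arrays fell into 6 Dio2-/- Run, 3 Dio2-/- NoRun, 8 wild-type Run and 3 wild-type NoRun samples, each a pool of 2 mice, so P-values measure the spread between pools. Run mice were forced onto a treadmill tilted by 5 degrees and set to 11 m per minute, in daily sessions of 1 hour on 5 days of each week, over 3 weeks, and NoRun mice were not. All were of C57Bl/6 background, the knockout after 6 generations of backcrossing, and were 4 to 6 months old at the start. Dio2 encodes the deiodinase that activates thyroid hormone in tissues. The sources give wild-type mice as purchased and all animals as littermates, so litter or supplier and genotype cannot be told apart here.

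Aggrecan is the large proteoglycan that lets cartilage bear load by holding water, and its loss is an early step in osteoarthritis. Secreted ADAMTS proteases called aggrecanases cut its core protein, with Adamts4 and Adamts5 as the main members of that kind and Adamts1 and Adamts9 as weaker ones, while Adamts2 trims the ends of fibrillar procollagen. The 4 TIMPs block metalloproteinases by binding the zinc site. Timp3 is bound to the matrix and is the main TIMP that inhibits aggrecanases, Timp2 inhibits and also helps to activate the gelatinase Mmp2, Timp1 is an inducible inhibitor and Timp4 has the narrowest tissue distribution. Htra1 is a secreted serine protease that cuts matrix proteins of the joint.

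None of the 14 tested probes passed an adjusted P-value of 0.05 in limma in any of the 6 comparisons of genotype and running. Timp2 and Timp3 had the lowest adjusted P-values of the set. Timp2 in Run cartilage stood at 0.659 of its NoRun level in Dio2-/- mice (adjusted P = 0.126 from limma) and at 0.667 of it in wild-type mice (adjusted P = 0.19). The lowest adjusted P-value of Timp3 was that of its dim probe ILMN_1232928, which stood at 0.508 of its NoRun level in wild-type Run cartilage (adjusted P = 0.189 from limma). The main probe of Timp3 was 1.28-fold higher in Dio2-/- than in wild-type cartilage (adjusted P = 0.266 from limma). Its other 2 tested probes went the other way, at 0.859 and 0.960 of the wild-type level (adjusted P = 0.641 and 0.908). All tested probes but that of Timp2 spread more within the groups than between them. The share between groups was 52.8% for Timp2 and 43.1%, 44.1% and 7.55% for the 3 probes of Timp3.

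The promoters of Timp2 and Timp3 are shown because these genes gave the lowest unadjusted P-values of the set under running. They are the 250 bases before the start of each gene, 5′ to 3′ on the gene's strand, from RefSeq (GRCm38.p6), which held a promoter for 8 of the 10 genes. Timp2 lies at chr11:118355412-118355661 on the minus strand and Timp3 at chr10:86300162-86300411 on the plus strand. Capitals mark GC boxes, searched as GGGCGG on both strands.
Timp2: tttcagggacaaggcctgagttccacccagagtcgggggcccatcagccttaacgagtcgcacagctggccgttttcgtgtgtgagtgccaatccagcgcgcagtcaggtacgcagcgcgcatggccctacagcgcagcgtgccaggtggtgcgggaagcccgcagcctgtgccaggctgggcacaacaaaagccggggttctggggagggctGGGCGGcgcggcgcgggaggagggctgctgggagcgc
Timp3: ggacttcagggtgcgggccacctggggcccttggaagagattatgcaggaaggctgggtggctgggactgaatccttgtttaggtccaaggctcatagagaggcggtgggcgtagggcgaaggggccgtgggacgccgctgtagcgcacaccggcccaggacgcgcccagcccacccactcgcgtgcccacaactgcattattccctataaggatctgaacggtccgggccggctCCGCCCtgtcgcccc
Each window held 1 GC box, beginning 37 bases before the start in Timp2 and 15 bases before it in Timp3. A GC box was found in 32.7% of the 32851 promoter windows of this length. Neither window held TGANTCA, the letters bound by the stress-responsive factor AP-1 (6.75% of all windows), nor TATAAA (12.4%), on either strand, and no motif match overlapped another.

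Before the members, the arrays themselves were compared. Median intensity lay between 162.3 and 223 and 18469 to 21386 probes were detected per array. The correlation between any pair of arrays lay between 0.913 and 0.993. Dio2-/- NoRun replicate 16 and Dio2-/- Run replicate 24 stood apart on the first principal component, at 118.2 and 67.3, whereas the other 18 lay between -31.3 and 28.2. Of 10 chondrocyte markers 8 were tested, Col2a1 and Acan among them, and Matn3 and Prg4 were not. The RNA also held neutrophil (9 of 10 tested), skeletal muscle (10 of 10) and osteoblast markers (9 of 9), and replicate 16 had the lowest neutrophil and osteoblast and the highest chondrocyte and muscle mean of the 20 arrays. Replicate 24 came next to it in each of these lists, at 14.27 for neutrophil, 9.98 for osteoblast, 11.06 for chondrocyte and 14.98 for muscle markers. In such bulk RNA, fewer cells of a type and less RNA per cell cannot be told apart. Dio2 itself was near background, and its tested probe ILMN_2766037 was detected on 4 of 6 Dio2-/- Run, 3 of 3 Dio2-/- NoRun, 2 of 8 wild-type Run and 0 of 3 wild-type NoRun arrays. Its difference was 0.57 on the log2 scale (adjusted P = 0.195 from limma), higher in Dio2-/-. No source used here places this probe relative to the deleted part, so it checks nothing about the labels.

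**Figure D1:**
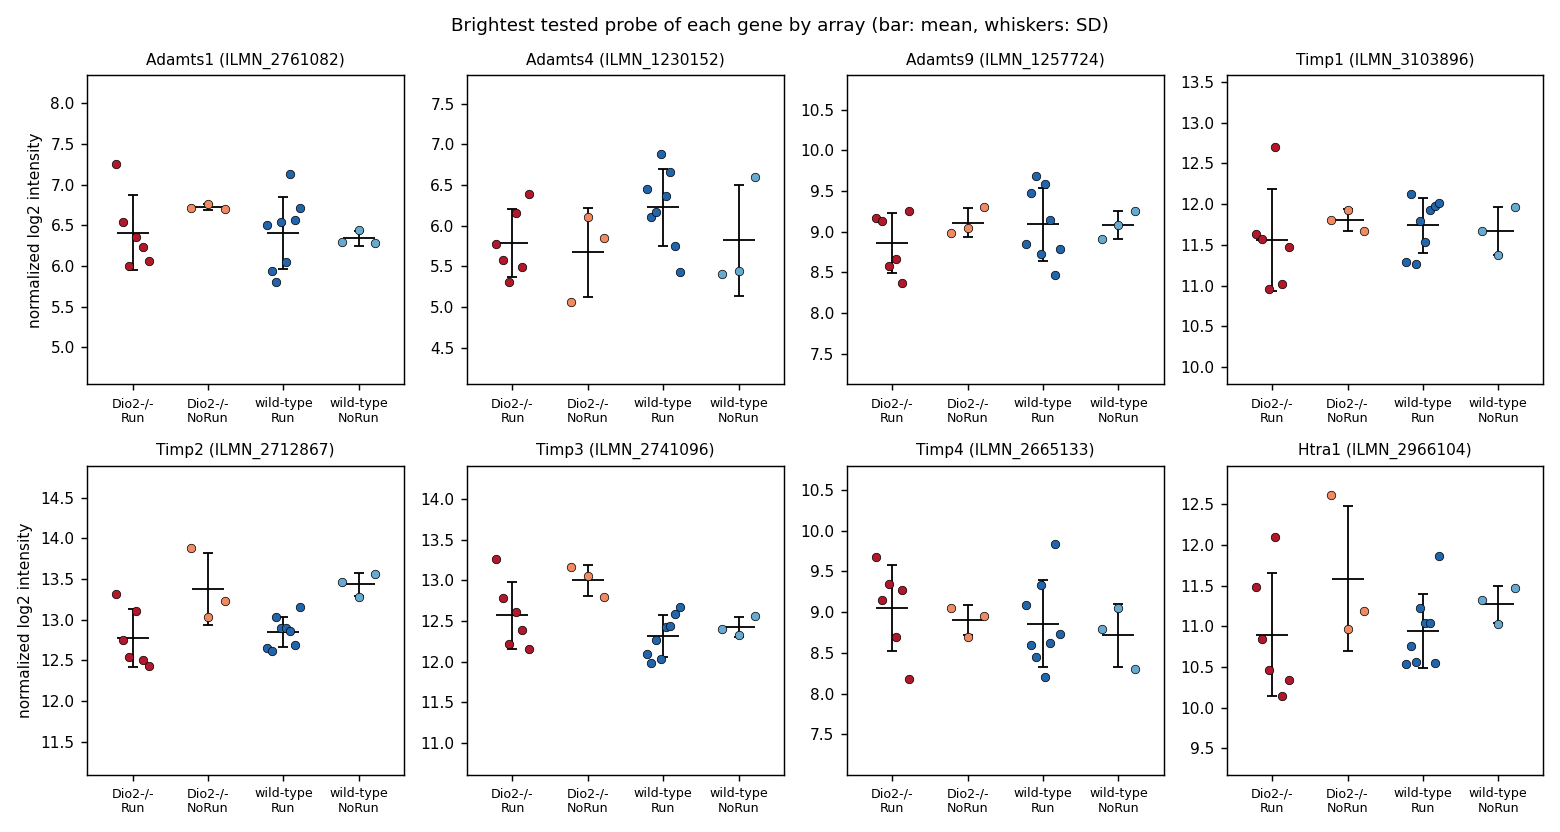
Normalized log2 intensity (y axis) of the brightest tested probe of each of the 8 measured genes in the 20 arrays, grouped by genotype and running (x axis); each point is an array, the bar is the group mean and the whiskers are the SD. In the Timp2 panel the 3 wild-type NoRun points, at 13.28 to 13.56, lie above all 8 wild-type Run points, which end at 13.15, whereas in the panels of Adamts9, Timp1, Timp4 and Htra1 each group overlaps every other.

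Adamts4, the aggrecanase whose single probe ILMN_1230152 passed the filter, lay near background and was detected on 13 of 20 arrays. Its normalized log2 intensity was 5.31 at the lowest, 5.68 at the median and 6.39 at the highest in 6 Dio2-/- Run samples and 5.06, 6.10 and 5.85 in the 3 Dio2-/- NoRun samples. In 8 wild-type Run samples it was 5.43, 6.26 and 6.87 in the same order, and it was 5.41, 5.44 and 6.60 in the 3 wild-type NoRun samples. The wild-type Run samples were highest on average, and every group overlapped every other. The genotype effect, estimated over all 20 arrays with running as a term, was -0.35 on the log2 scale (SE 0.20), with an unadjusted P = 0.101 and an adjusted P = 0.429 from limma. Near background, such a value need not give the size of a change in the transcript, and noise weighs more on it. Among the arrays of chip 6, which carried both genotypes, Dio2-/- Run minus wild-type Run was -1.20 (2 against 1 arrays).

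Adamts1, a protease that also cuts versican, was detected on all 20 arrays by ILMN_2761082. This probe gave 6.00, 6.30 and 7.26 as the lowest, median and highest log2 intensity in Dio2-/- Run and 6.71, 6.77 and 6.70 in the Dio2-/- NoRun samples. It gave 5.81, 6.52 and 7.13 in wild-type Run and 6.29, 6.45 and 6.28 in the wild-type NoRun samples. All 3 Dio2-/- NoRun values lay above the 3 wild-type NoRun values, and the Run groups overlapped over most of their range. The NoRun groups came from different chips, so chip and genotype cannot be told apart in NoRun. The difference in NoRun was 0.39 (SE 0.30, adjusted P = 0.654 from limma) and in Run 0.00 (SE 0.20, adjusted P = 0.997). A dimmer probe of Adamts1, ILMN_1238495, was detected on 4 of 20 arrays, on 0 of 8 in wild-type Run, and no fold is given for it.

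Adamts9, known in other mouse tissues for cutting versican, had a bright probe, ILMN_1257724, detected on all 20 arrays. Its log2 intensity was 8.37, 8.90 and 9.26 (lowest, median and highest) in Dio2-/- Run and 8.99, 9.04 and 9.31 in the Dio2-/- NoRun samples, against 8.46, 9.001 and 9.68 in wild-type Run and 8.91, 9.08 and 9.26 in the wild-type NoRun samples. The groups shared nearly the same centre, and the lowest and the highest array were both Run samples. The genotype effect was -0.15 (SE 0.16, 95% interval -0.48 to 0.18) and the running effect -0.25 (SE 0.25) in Dio2-/- and 0.01 (SE 0.24) in wild-type mice. A dimmer probe, ILMN_1254543, was detected on 6 of 20 arrays and had the opposite sign in 6 of 6 comparisons, none of them with a P-value below 0.05.

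Timp1, the inducible inhibitor, was bright on all 20 arrays with both of its probes. For ILMN_3103896 the log2 intensity was 10.96, 11.52 and 12.70 (lowest, median and highest) in Dio2-/- Run and 11.81, 11.93 and 11.67 in the Dio2-/- NoRun samples. It was 11.27, 11.86 and 12.13 in wild-type Run and 11.67, 11.37 and 11.97 in the wild-type NoRun samples. The Dio2-/- Run samples included the lowest and the highest of all 20 values, replicates 32 and 33. The genotype effect was -0.09 (SE 0.18, 95% interval -0.46 to 0.29, adjusted P = 0.848 from limma). Both probes differed by at most 0.22 on any array, with a Pearson's r of 0.97 over the 20 arrays.

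Timp2 had the largest share of its spread between the 4 groups among the 14 probes, 52.8%. Its probe ILMN_2712867 gave 12.44, 12.65 and 13.32 as the lowest, median and highest log2 intensity in Dio2-/- Run and 13.88, 13.03 and 13.23 in the Dio2-/- NoRun samples. It gave 12.62, 12.88 and 13.15 in wild-type Run and 13.46, 13.28 and 13.56 in the wild-type NoRun samples. All 8 wild-type Run values lay below the 3 wild-type NoRun values, whereas in Dio2-/- mice Run replicates 24 and 33, at 13.32 and 13.11, reached into the NoRun range.

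Run minus NoRun for Timp2 was -0.60 in Dio2-/- (SE 0.20, 95% interval -1.02 to -0.19) and -0.58 in wild-type mice (SE 0.19, 95% interval -0.98 to -0.19). The unadjusted P-values were 0.00683 and 0.00614, and the adjusted P-values were 0.126 and 0.19 from limma. The 2 running effects differed by -0.02 (95% interval -0.59 to 0.56), and the genotype effect was -0.07 (95% interval -0.32 to 0.19). In order of mean level both NoRun groups came above both Run groups, and within NoRun and within Run the genotypes did not differ beyond their spread. Leaving out single pools moved the value in Dio2-/- mice. Without Dio2-/- Run replicate 24 it was -0.71 (adjusted P = 0.0209 from limma), past the threshold, and without Dio2-/- NoRun replicate 16 it was -0.35 (adjusted P = 0.571). The value of replicate 16 was the highest after normalization only: its intensity before normalization, 7678, was the lowest of the Dio2-/- NoRun samples, against 9025 and 9893 in replicates 17 and 19.

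Chips and running were nearly confounded. All 3 Dio2-/- NoRun arrays came from chip 5, from which no array of another group was analysed here, so that chip and running cannot be told apart in Dio2-/- mice. No chip carried NoRun arrays of both genotypes, so chip and genotype cannot be told apart in NoRun for any member. The 3 wild-type NoRun arrays shared chip 4, among the arrays analysed here, with 1 array of another group, Dio2-/- Run replicate 35, and on that chip Timp2 in that array minus the mean of the wild-type NoRun arrays was -0.998. With chip as a block in the fit, the running effect in wild-type mice rested on this array and on chip 6 and was -1.14 (adjusted P = 0.272 from limma).

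Tissue markers were set beside Timp2. The mean of the 8 tested chondrocyte markers was 10.59 ± 0.41 (SD, n = 6) in Dio2-/- Run and 10.82 ± 0.27 (n = 3) in Dio2-/- NoRun samples. It was 10.43 ± 0.30 (n = 8) in wild-type Run and 11.00 ± 0.01 (n = 3) in wild-type NoRun samples. The range over arrays was 10.12 to 11.06 in Dio2-/- Run, 10.53 to 11.07 in Dio2-/- NoRun, 9.83 to 10.77 in wild-type Run and 11.00 to 11.01 in wild-type NoRun. The median difference of the 8 markers between Run and NoRun was -0.25 in Dio2-/- mice and -0.60 in wild-type mice. The unadjusted P-value was below 0.05 for 0 of 8 in Dio2-/- mice (19.2% of all tested probes) and for 3 of 8 in wild-type mice (13.2%). The 5 tested adipocyte markers had a median difference of -1.05 in Dio2-/- mice and of 0.03 in wild-type mice. An unadjusted P-value below 0.05 was found for 5 of 5 in Dio2-/- mice (19.2% of all tested probes) and for 0 of 5 in wild-type mice (13.2%). The median of their interaction terms was -0.90, with such a P-value for 3 of 5 (5.13%). The list mean ranged over arrays between 8.10 and 9.02 in Dio2-/- Run and between 9.18 and 9.76 in Dio2-/- NoRun, against 8.33 to 9.13 in wild-type Run and 8.43 to 9.33 in wild-type NoRun samples. For the 6 tested synovium, tendon and fibroblast markers the median was -0.38 in Dio2-/- mice and -0.28 in wild-type mice. Their unadjusted P-value was below 0.05 for 2 of 6 in Dio2-/- mice (19.2% of all tested probes) and for 1 of 6 in wild-type mice (13.2%). The part of these markers in the differences of Timp2 and of the Timp3 probes was not tested.

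Timp3, the inhibitor of aggrecanases, had 3 tested probes that gave different pictures. The main probe, ILMN_2741096, was bright on all 20 arrays. It gave 12.16, 12.50 and 13.26 as the lowest, median and highest log2 intensity in Dio2-/- Run and 13.16, 13.06 and 12.79 in the Dio2-/- NoRun samples, against 11.98, 12.35 and 12.67 in wild-type Run and 12.40, 12.33 and 12.56 in the wild-type NoRun samples. All 3 Dio2-/- NoRun values lay above the 3 wild-type NoRun values, on different chips, so chip and genotype cannot be told apart there. The Run groups overlapped, with the 2 highest values in Dio2-/- Run replicates 24 and 25.

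The genotype effect of this probe was 0.35 (SE 0.13, 95% interval 0.08 to 0.62), with an unadjusted P = 0.0145 and an adjusted P = 0.266 from limma. It was 0.57 in NoRun (SE 0.24, adjusted P = 0.428) and 0.25 in Run (SE 0.16, adjusted P = 0.677). Run minus NoRun was -0.43 in Dio2-/- (SE 0.21, adjusted P = 0.254) and -0.11 in wild-type mice (SE 0.20, adjusted P = 0.839), and these 2 effects differed by -0.32 (95% interval -0.91 to 0.27). Without Dio2-/- Run replicate 24 the running effect in Dio2-/- mice was -0.57 (adjusted P = 0.0415 from limma), past the threshold, the genotype effect in Run was 0.11 (adjusted P = 0.91) and the genotype effect over both conditions was 0.27. For this probe too, the intensity of Dio2-/- NoRun replicate 16 before normalization, 4738, was lower than those of replicates 17 and 19, 9206 and 7544, and lower than all 3 wild-type NoRun samples, which began at 5777. On chip 6 the 2 Dio2-/- Run arrays, which are replicates 24 and 25, were 0.98 above the wild-type Run array. With chip as a block, the genotype effect was that same 0.98 (adjusted P = 0.43 from limma) and the running effect in wild-type mice was -1.25 (adjusted P = 0.138).

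The probe ILMN_1232928 of Timp3, detected on all 20 arrays with intensities not far above background, had another pattern. It gave 5.68, 6.08 and 6.36 as the lowest, median and highest log2 intensity in Dio2-/- Run and 8.04, 6.33 and 5.80 in the Dio2-/- NoRun samples, against 5.59, 6.11 and 6.57 in wild-type Run and 7.34, 6.88 and 7.15 in the wild-type NoRun samples. All 8 wild-type Run values lay below the 3 wild-type NoRun values, and the Dio2-/- NoRun samples were spread over most of the range of the series. Dio2-/- NoRun replicate 16, at 8.04, was the highest after normalization only. Its intensity before normalization, 290, was lower than in all 3 wild-type NoRun samples, which began at 319.

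Run minus NoRun of this probe was -0.71 in Dio2-/- mice (SE 0.33, adjusted P = 0.247 from limma) and -0.98 in wild-type mice (SE 0.32, unadjusted P = 0.00608, adjusted P = 0.189). Dio2-/- NoRun replicate 16 bore on both. Without it the effect was -0.06 in Dio2-/- mice (adjusted P = 0.957 from limma), and in wild-type mice it kept its size while the adjusted P-value became 0.0269, past the threshold. On chip 4, Dio2-/- Run replicate 35 minus the wild-type NoRun mean was -0.97. With chip as a block the running effect in wild-type mice was -0.27 (adjusted P = 0.884 from limma). The size of both effects also depended on the processing of this dim probe. Without background correction they were -0.32 in Dio2-/- and -0.38 in wild-type mice, and with the normalized values of the authors they were -0.20 in Dio2-/- and -0.23 in wild-type mice. The remaining probe, ILMN_2614759, was detected on 18 of 20 arrays and had a genotype effect of -0.06 (SE 0.18). Its running effect was -0.34 (SE 0.29, adjusted P = 0.518 from limma) in Dio2-/- mice and 0.01 (SE 0.28) in wild-type mice. Running in Dio2-/- mice was thus negative for all Timp3 probes, none past the adjusted threshold, and chip and running cannot be told apart there. The main probe had a Pearson's r of 0.24 with ILMN_1232928 and of 0.19 with ILMN_2614759 over the 20 arrays. It shared their sign in 2 and 3 of 6 comparisons, so no direction over the comparisons is given for Timp3 as a gene.

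**Figure D2:**
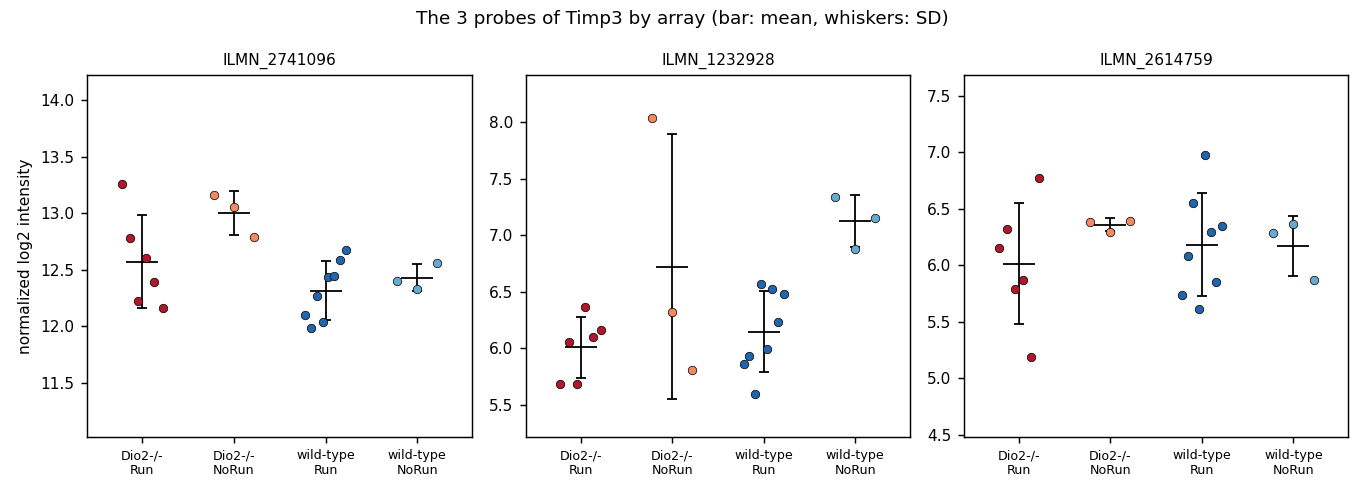
Normalized log2 intensity (y axis, each panel spanning the same number of log2 units) of the 3 tested probes of Timp3 in the 4 groups (x axis); points are arrays, bars are means and whiskers are SDs. ILMN_2741096 is highest in the 3 Dio2-/- NoRun arrays on average and ILMN_2614759 overlaps in all groups. ILMN_1232928 is highest in the wild-type NoRun arrays and, after normalization only, in Dio2-/- NoRun replicate 16 at 8.04.

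Timp4, the inhibitor best known from heart and brain, was detected on all 20 arrays by ILMN_2665133. Its log2 intensity was 8.18, 9.21 and 9.67 (lowest, median and highest) in Dio2-/- Run and 9.06, 8.70 and 8.95 in the Dio2-/- NoRun samples, against 8.21, 8.68 and 9.84 in wild-type Run and 8.80, 9.05 and 8.30 in the wild-type NoRun samples. Every group overlapped every other, and both Run groups spanned about the full range. The genotype effect was 0.19 (SE 0.20, 95% interval -0.22 to 0.60, adjusted P = 0.671 from limma). The 10 skeletal muscle markers had a median genotype effect of 0.49. Of these markers, 6 of 10 had an unadjusted P-value below 0.05 over all arrays (14.3% of all tested probes), 6 of 10 in Run (8.17%) and 0 of 10 in NoRun (10.4%). Their mean was 14.30 ± 0.44 (SD, n = 6) in Dio2-/- Run and 14.48 ± 0.55 (n = 3) in Dio2-/- NoRun, against 13.82 ± 0.42 (n = 8) in wild-type Run and 14.13 ± 0.33 (n = 3) in wild-type NoRun samples. The range over arrays was 13.74 to 14.98, 13.90 to 14.99, 13.43 to 14.64 and 13.76 to 14.38 in the same order of groups. Their part in the values of Timp4 was not tested.

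Htra1 had the widest range of the members, 2.47 on the log2 scale over the 20 arrays for ILMN_2966104, close to 2.45 for Timp3 ILMN_1232928. This probe gave 10.14, 10.65 and 12.09 as the lowest, median and highest log2 intensity in Dio2-/- Run and 12.61, 10.96 and 11.18 in the Dio2-/- NoRun samples. It gave 10.54, 10.89 and 11.87 in wild-type Run and 11.32, 11.02 and 11.47 in the wild-type NoRun samples. Single pools stood out in 3 of the groups, namely Dio2-/- NoRun replicate 16, Dio2-/- Run replicate 33 and wild-type Run replicate 31, and all groups overlapped. Replicate 16 was the highest of the 20 arrays after normalization only. Its intensity before normalization, 3150.5, was below those of replicates 33 and 31, at 4540.7 and 3956.9. Run minus NoRun was -0.69 in Dio2-/- (SE 0.40, adjusted P = 0.341 from limma) and -0.32 in wild-type mice (SE 0.38, adjusted P = 0.748). Without replicate 16 the effect in Dio2-/- mice was -0.18. The other probe, ILMN_2746738, had a Pearson's r of 0.96 with it over the 20 arrays and shared its sign in 5 of 6 comparisons.

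**Figure D3:**
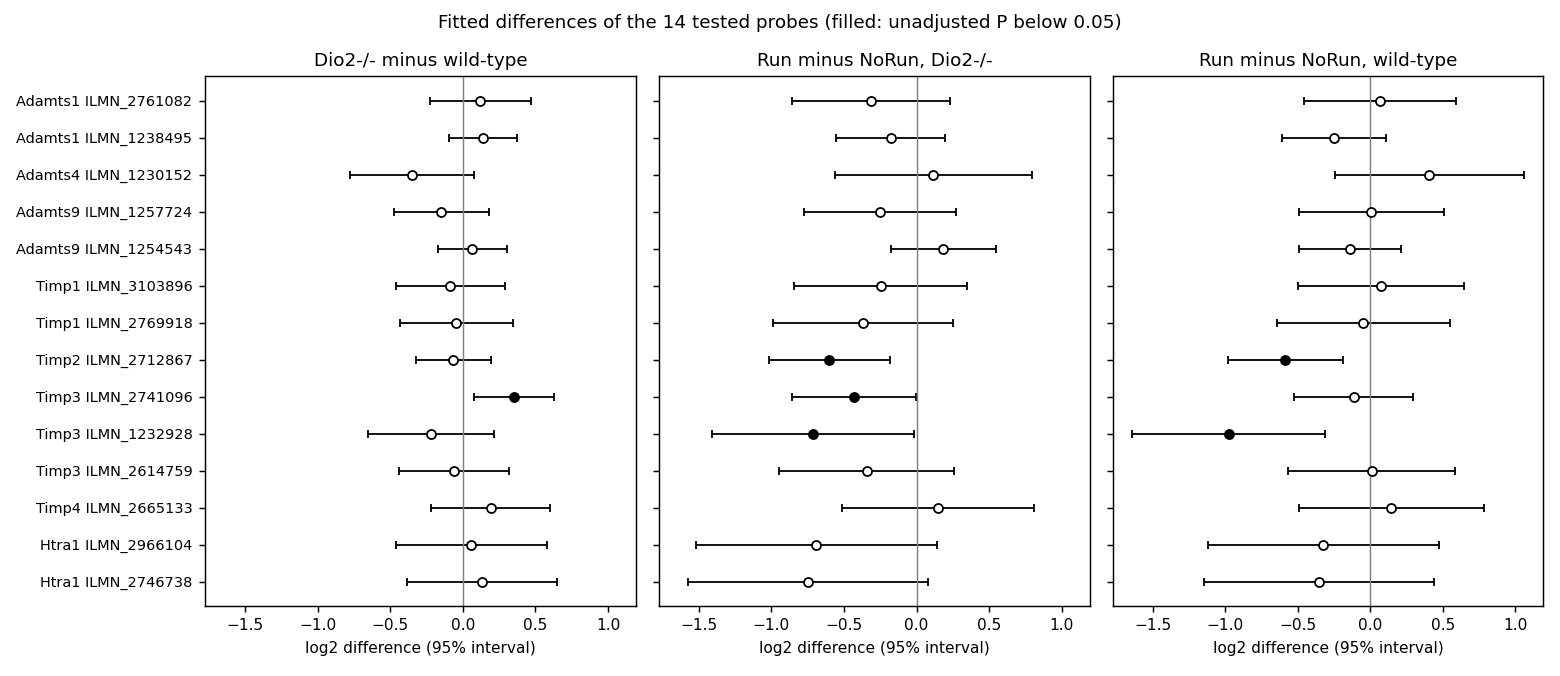
Fitted log2 differences of the 14 tested probes (rows) with 95% intervals, for Dio2-/- minus wild-type over all arrays and for Run minus NoRun in each genotype (panels); filled points have an unadjusted P-value below 0.05. The filled points are ILMN_2741096 of Timp3 at 0.35 in the first panel, Timp2 at -0.60 and 2 of the Timp3 probes at -0.43 and -0.71 in the next, and Timp2 at -0.58 and ILMN_1232928 of Timp3 at -0.98 in the last.

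The counts over the 14 probes were read against all 23148 tested probes. For genotype over all arrays, 0 of 14 probes passed the adjusted threshold in limma, where 0.00432% of all probes did, and 1 of 14 had an unadjusted P-value below 0.05, where 14.3% did. In Run the counts were 0 (0% of all probes) and 0 (8.17%), and 0 of 14 had groups that did not overlap, where 0.112% of all probes had. In NoRun they were 0 (0.0432%) and 1 (10.4%), with 2 of 14 not overlapping, Adamts1 and Timp3, where 13.1% did not overlap.

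For running in Dio2-/- mice, 0 of 14 passed (0.134% of all probes) and 3 had an unadjusted P-value below 0.05 (19.2%), with 0 not overlapping (4.4%). In wild-type mice 0 passed (0.194%) and 2 had an unadjusted P-value below 0.05 (13.2%), with the same 2 probes not overlapping (7.89%). For the interaction, which asks whether the running effect differed between the genotypes, the counts were 0 (0%) and 0 (5.13%). Read against these shares, the counts set the members apart from all probes in none of the comparisons. The median difference of the 14 probes, which stand for 8 genes, was -0.33 for running in Dio2-/- mice, with 11 of 14 lower in Run. Over all tested probes it was 0.02, with 52.9% higher. In wild-type mice it was -0.08, with 8 of 14 lower, against 0.01. For genotype it was 0.01, against 0.00 over all tested probes. In NoRun it was 0.16, with 10 of 14 higher, and for the interaction -0.31, with 10 of 14 lower, against 0.01 for both. Running in Dio2-/- mice, genotype in NoRun and the interaction all rest on the same 3 Dio2-/- NoRun arrays.

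The bound farthest from 0 among the members' 95% intervals was 0.78 in size on the log2 scale for genotype over all arrays (Adamts4) and 1.64 for running in wild-type mice (Timp3 ILMN_1232928).

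**Figure D4:**
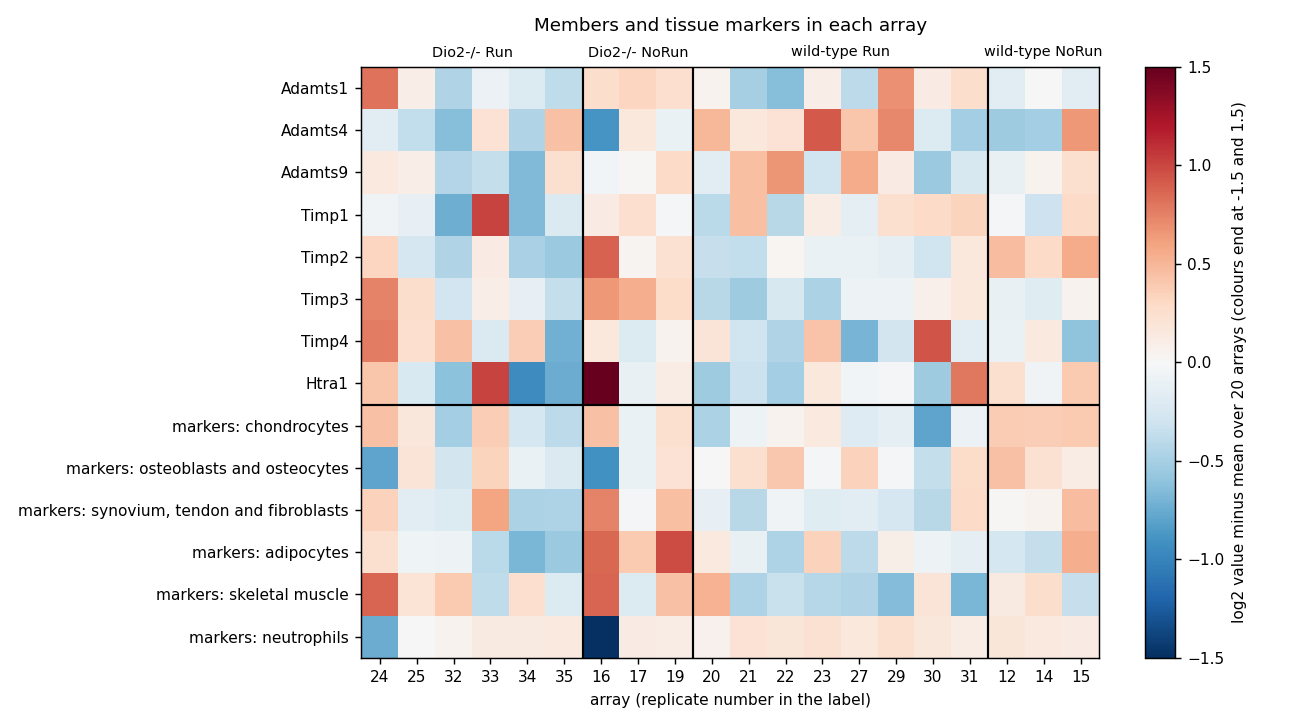
Log2 value minus its mean over the 20 arrays (colour, red above and blue below the mean) for the brightest tested probe of the 8 measured genes and for the mean of 6 lists of tissue markers (rows) in each array (columns, with the replicate number of the label), in the 4 groups. Dio2-/- NoRun replicate 16 is high after normalization for Timp2, Timp3 and Htra1, at 13.88, 13.16 and 12.61, and is the lowest array for the neutrophil markers, at 13.23.

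The surrounding pathway was counted in 66 further genes, of which 45 had a tested probe, and 0 of the 45 passed the adjusted threshold in any of the 6 comparisons in limma. Unadjusted P-values below 0.05 were found for 5 genes for genotype (3 higher and 2 lower in Dio2-/-), for 10 for running in Dio2-/- mice (1 higher and 9 lower in Run) and for 8 in wild-type mice (2 higher and 6 lower in Run). Over all tested probes the share was 14.3% for genotype, 19.2% for running in Dio2-/- mice and 13.2% in wild-type mice. For genotype in Run there was 1 (lower in Dio2-/-), against 8.17% of all tested probes. In NoRun there were 4 (3 higher and 1 lower in Dio2-/-), against 10.4%, and for the interaction there were 3, all negative, against 5.13%.

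Among the substrates of these enzymes, 9 of 10 tested genes had a negative difference between Run and NoRun in Dio2-/- mice, 3 of them with an unadjusted P-value below 0.05 (19.2% of all tested probes), and 10 of 10 had one in wild-type mice, 5 of them with such a P-value (13.2% of all tested probes). Their median difference was -0.37 in Dio2-/- and -0.52 in wild-type mice. Acan, the aggrecan gene, had a log2 intensity of 10.08, 10.47 and 11.18 (lowest, median and highest) in Dio2-/- Run and 10.76, 10.81 and 11.62 in Dio2-/- NoRun, against 10.04, 10.62 and 10.69 in wild-type Run and 10.89, 11.05 and 11.26 in wild-type NoRun. All wild-type Run values of Acan lay below the wild-type NoRun values, and the Dio2-/- groups overlapped. The difference was -0.47 in Dio2-/- mice (SE 0.24, adjusted P = 0.284 from limma) and -0.60 in wild-type mice (SE 0.23, adjusted P = 0.263). Col2a1, the main collagen of cartilage, differed by -0.12 in Dio2-/- mice and by -1.11 in wild-type mice (adjusted P = 0.203). Col1a2, of the fibrous collagen of bone and tendon, differed by -0.98 in Dio2-/- and by -1.13 in wild-type mice. For genotype the smallest P-values were those of Comp at 0.35, Col1a2 at -0.40 and Col3a1 at -0.36, with adjusted P = 0.373 or more in limma.

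Of 7 tested genes that activate, clear or inhibit the proteases, 5 had an unadjusted P-value below 0.05 for running in Dio2-/- mice (19.2% of all tested probes), all with a negative difference. In wild-type mice 1 had one (13.2% of all tested probes). The median difference of the 7 was -0.56 in Dio2-/- and -0.17 in wild-type mice, and none passed the adjusted threshold in limma. Lrp1, the endocytic receptor that clears aggrecanases and Timp3, differed by -0.79 between Run and NoRun in Dio2-/- mice (adjusted P = 0.0792 from limma) and by -0.03 in wild-type mice. Its log2 intensity was 6.28, 6.57 and 6.75 (lowest, median and highest) in Dio2-/- Run and 7.22, 7.23 and 7.54 in Dio2-/- NoRun, which did not overlap, and the wild-type groups did. The difference between the 2 running effects was -0.76 (unadjusted P = 0.0151, adjusted P = 0.929). Sdc4, a cell-surface proteoglycan known to take part in activating the aggrecanase Adamts5, differed by -0.57 in Dio2-/- (adjusted P = 0.103) and by -0.42 in wild-type mice (adjusted P = 0.28). Pcsk6, a proprotein convertase, differed by -0.56 in wild-type mice and Reck, a membrane-bound inhibitor of metalloproteinases, by -0.19. For genotype, Fbln1, a cofactor of Adamts1, differed by 0.32 (adjusted P = 0.258), Lrp1 by 0.25 and Reck by -0.15.

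In the other families no gene passed the adjusted threshold in limma. For genotype, unadjusted P-values below 0.05 were found for 0 of 8 ADAMTS proteases, 2 of 5 ADAMTS-like proteins, 0 of 3 HtrA proteases and 2 of 12 metalloproteinases (14.3% of all tested probes). For running in Dio2-/- mice they were found only among the HtrA proteases, 1 higher and 1 lower of 3 (19.2%). In wild-type mice they were found for 1 of 8 ADAMTS proteases and 1 of 12 metalloproteinases (13.2%). Of 8 further ADAMTS proteases, Adamts15 differed by 0.57 with running in wild-type mice (adjusted P = 0.22 from limma), followed by Adamts7 at 0.38 and Adamts18 at -0.46, and for genotype Adamts7, Adamts10 and Adamts16 differed by 0.14, -0.14 and 0.09. Several genes of these families were about as dim as Adamts4, which lay near background. Group means were 5.48 to 6.06 for Adamts15, 5.61 to 6.03 for Adamts7 and 5.45 to 5.79 for Adamts16. They were 5.38 to 6.44 for Adamtsl1 and 5.18 to 5.43 for Mmp19. The ADAMTS-like proteins share domains with the family and lack the protease domain. Of 5 tested, Adamtsl2, Adamtsl4 and Adamtsl1 differed by 0.42, 0.32 and 0.40 with genotype (adjusted P = 0.312 or more). All 5 genotype differences were positive over all arrays and in Run, and in NoRun 3 were positive and 2 negative. With running in wild-type mice Adamtsl1, Adamtsl2 and Adamtsl3 differed by -0.52, -0.28 and -0.15. Of 12 matrix metalloproteinases, Mmp25, a membrane-type enzyme of neutrophils, differed by -0.91 with genotype (adjusted P = 0.258), Mmp16 by -0.39 and Mmp9 by -0.20, while Mmp24 at 0.51 (adjusted P = 0.129), Mmp2 at -0.49 and Mmp19 at 0.25 had the smallest P-values for running in wild-type mice. Single pools were low for Mmp25, with a lowest log2 intensity of 5.29 in Dio2-/- NoRun (median 8.51) and 7.24 in Dio2-/- Run (median 8.67). The medians were 9.16 in wild-type Run and 9.05 in wild-type NoRun. The median neutrophil marker differed by -0.22 with genotype, and the neutrophil mean was 13.23 in replicate 16 and 14.27 in replicate 24. The part of these markers in Mmp25 and Mmp9 was not tested. Of the HtrA proteases, Htra4, Htra3 and Htra2 differed by -0.92, -0.39 and 0.03 with running in wild-type mice and by 0.07, -0.05 and 0.03 with genotype, and Htra4 differed by -1.60 with running in Dio2-/- mice (adjusted P = 0.0966).

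The genes most like each member were listed by Pearson's r over the 20 arrays, which share their chips and tissue makeup, as a description. Timp2 was most like Pmepa1 and Col27a1 (r = 0.95 for both), of which Col27a1 is a collagen gene of cartilage. Htra1 was most like Sod3 and Mrgprf (0.97 and 0.96) and Timp3 like Angptl7 and Tgfbr3 (0.91 and 0.90). Timp4 came with Magix and Gatd3a (0.89 and 0.88), Timp1 with Col6a2 and Pttg1ip (0.81 and 0.79), Adamts1 with Ric3 and Ace (0.84 and 0.82), Adamts4 with Foxs1 and Pum3 (0.86 and 0.79) and Adamts9 with Cers2 and Trip12 (0.85 and 0.84).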

How the data were processed

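RNA from knee articular cartilage was measured on Illumina MouseWG-6 v2 arrays. The authors deposited probe intensities that were not normalized, with a detection P-value for each, and a table of normalized log2 values that was used as an alternative. GenomeStudio is named in the submitters' processing notes, without a version, and no source used here gives the normalization. In R 4.3.3, neqc from limma 3.58.1 corrected the background of the intensities (offset 16) and normalized quantiles to log2 values. The genotype effect was fitted on genotype and running, and the other comparisons were contrasts of a fit of 4 groups. P-values were adjusted by Benjamini-Hochberg over 23148 probes, with a threshold of 0.05. The fit of the genotype effect was checked on simulated data with independent noise and without differences between chips. That check did not cover the running contrasts. The number of arrays, 20, limits the precision. A gene was led by its brightest tested probe. All members were named. From the pathway lists, the 3 genes per list with the smallest P-values for genotype and for running in wild-type mice were named, and Lrp1, Sdc4, Htra4, Col2a1, Col1a2 and Acan in Dio2-/- mice were added after their values were seen. For each member the 2 most correlated genes were named. The members and lists were chosen with earlier results of these data known. Alternatives were other background, filter and normalization settings, array weights, chip as a block and leaving out pools.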

Additional observations from a re-analysis of the deposited data

Results flagged for a closer look

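Among 28 groups of 6 or 8 arrays, Dixon's test at the 95% level marked 1, and chance marks about 1 in 20. The Htra1 probe ILMN_2746738 was 11.79 in wild-type Run replicate 31, against 11.07 in the nearest of the other wild-type Run samples, a gap of 0.565 of the range of the group. The other Htra1 probe was also highest in that array within the group, at 11.87.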

How the results depend on the processing

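Of 2682 refitted differences of the 14 probes, 2637 stayed within 1 SD between pools and on their side of the threshold, 32 moved further, 11 newly passed an adjusted P-value of 0.05 in limma and 2 reversed. The count of probes past that threshold was 0 in each of the 6 comparisons. With array weights, whose fit stopped before it converged, it was 1 for genotype in NoRun, 2 for running in Dio2-/- mice (Timp2 and Adamts9), 2 for running in wild-type mice (Timp2 and Timp3 ILMN_1232928) and 1 for the interaction (Timp3 ILMN_1232928). With Dio2-/- NoRun replicate 16 and Dio2-/- Run replicate 24 both left out it was 2 for running in wild-type mice. Leaving out each pool in turn gave 0 to 2 for running in Dio2-/- mice, with 2 without Dio2-/- Run replicate 24, and 0 to 1 for running in wild-type mice, with 1 without Dio2-/- NoRun replicate 16. The running effect of Timp3 ILMN_1232928 in Dio2-/- mice reversed to 0.13 with array weights and to 0.0085 with both pools left out, and the cause was not tested. Unadjusted counts ranged over all settings from 0 to 7 for running in Dio2-/- mice and from 2 to 4 in wild-type mice. For running in Dio2-/- mice the count of 3 became 0 without Dio2-/- NoRun replicate 16, 1 without Dio2-/- Run replicate 32 or 34 or wild-type NoRun replicate 15, and 6 without Dio2-/- Run replicate 33. Detection filters left 15434 to 26979 probes, with 10 to 14 of the members. With chip as a fixed block, the effects of genotype in NoRun, of running in Dio2-/- mice and of the interaction could not be estimated and were not run. No paired analysis was possible because the groups share no replicate numbers.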
